A study of Mus musculus with 21 samples.

Results

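To determine how much macrophage RNA was carried by peritoneal B cells after sorting, 10 genes known as markers of resident peritoneal macrophages were followed through RNA-seq libraries of sorted cells. Mice with a global deletion of TET2 (TET2-KO) were compared with wild-type (WT) mice in 3 B cell subsets, B-1a, B-1b and conventional B-2. The genes were Adgre1, Csf1r, Gata6, Timd4, C1qa, C1qb, C1qc, Apoe, Alox15 and F13a1. All 10 were matched by gene symbol among the 56953 genes of the count tables, and they were chosen by name as markers. The 21 libraries came from the peritoneal cavity of C57BL/6 mice. For B-1a there were 4 libraries of each genotype, for B-1b 4 WT against 3 TET2-KO, and for B-2 only 2 WT against 4 TET2-KO. TET2, an enzyme that oxidizes methylated cytosines, was lost in every cell of the TET2-KO mice, because exons 8 to 10 of its gene, which encode the catalytic region, were deleted globally, so macrophages of these mice lacked it too. The study calls its mice young, and an exact age is not given in the sources used here. Both B-1 subsets were gated, among other markers, on low B220, CD23 and IgD, with CD5 present on B-1a and absent from B-1b cells, and neither F4/80 (the product of Adgre1) nor CD11b was in the sorting panel.

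Resident macrophages are the other abundant leukocyte of the mouse peritoneal cavity, and the large ones among them clear dying cells and debris from the fluid in which B-1 cells live. Their identity depends on the transcription factor GATA6, their survival on the receptor for colony-stimulating factor 1, and their uptake of dying cells on receptors such as TIM-4. Some of the 10 genes are not exclusive to them: Apoe is made by many tissues, and Timd4 is also known from peritoneal B-1 cells. In bulk RNA, more macrophages in a sort, more RNA per macrophage and transcription in the B cells themselves cannot be told apart, so a level below is the level of these transcripts in the library and not a number of cells.

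The members lie on several chromosomes, but C1qa, C1qb and C1qc, which encode the 3 chains of the complement protein C1q, are neighbours on the minus strand of chromosome 4 (GRCm39; C1qb at chr4:136607440-136613498, C1qc at chr4:136617115-136620376, C1qa at chr4:136623228-136626114). Their upstream sequences are shown because these 3 genes had the 3 highest correlations of all pairs of members. Each sequence is the 200 bases before the gene's start in GENCODE vM39, read 5′ to 3′ on the minus strand of GRCm39, from chr4:136626162-136626361 for C1qa, chr4:136613512-136613711 for C1qb and chr4:136620377-136620576 for C1qc. The gene coordinates above are those of the count tables (GENCODE vM32), so the sequences of C1qa and C1qb do not adjoin them. Capitals mark GAGGAA, the core of the purine box bound by PU.1, or TGCTGA, a half-site of the MAF recognition element, or the reverse complement of either.

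C1qa: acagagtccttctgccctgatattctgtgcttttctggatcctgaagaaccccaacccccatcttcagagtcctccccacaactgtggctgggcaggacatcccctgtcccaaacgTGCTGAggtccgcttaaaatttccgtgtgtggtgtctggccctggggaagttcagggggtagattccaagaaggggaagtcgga
C1qb: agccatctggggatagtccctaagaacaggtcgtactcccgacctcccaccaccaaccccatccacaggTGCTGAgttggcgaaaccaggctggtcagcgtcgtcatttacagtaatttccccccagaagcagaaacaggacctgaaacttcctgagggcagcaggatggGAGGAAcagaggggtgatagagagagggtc
C1qc: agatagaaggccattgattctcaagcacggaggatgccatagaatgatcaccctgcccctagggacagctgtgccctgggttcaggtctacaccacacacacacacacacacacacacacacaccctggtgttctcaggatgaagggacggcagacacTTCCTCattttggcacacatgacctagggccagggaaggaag

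In the 250 bases before the start, counting both strands, GAGGAA stood before 4 of the 10 genes (Adgre1, C1qb, C1qc and F13a1) and before 22.9% of 21770 promoters. TGCTGA stood before 4 of 10 (C1qa, C1qb, Gata6 and Timd4) and before 15.4% of all promoters, and the sequence recognised by GATA factors, AGATAA, before 0 of 10 and 10.5% of all promoters. In C1qb the 2 marked motifs lay 30 and 131 bases before the start and did not overlap. These matches describe letters in a short window and were not tested as binding sites.

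Total counts per library ranged from 9667187 to 24152518 (median 17425219). Levels are given as CPM, the counts of a gene per 1000000 counts of its library. The B cell gene Cd79a was at 6667 to 12101 CPM in every library. Tet2 itself was counted over the whole gene, so exons outside the deletion hold reads and its level (a median of 13.9 CPM in WT libraries and 19.3 CPM in TET2-KO libraries, up to 46.3 CPM) does not check the genotype. Several libraries labelled WT 1 and WT 2 went against their subset label in Fcer2a (CD23) or Cd5. Fcer2a was at 694 CPM in the library labelled B-1a WT 1 and at 519 CPM in the library labelled B-1b WT 2, where B-2 libraries of TET2-KO mice held 669 to 877 CPM, and at 20.2 CPM in the library labelled B-2 WT 1. Cd5 was at 4.39 and 1.41 CPM in the libraries labelled B-1a WT 1 and WT 2 and at 14.0 CPM in the library labelled B-1b WT 1, where the B-1a libraries of TET2-KO mice held 16.7 to 23.3 CPM. Summed levels, tests between B-1 genotypes, correlations and counts of genes without overlap are therefore also given without the WT 1 and WT 2 libraries. Those libraries also had fewer genes with a count (18074 to 19255) than the WT 3 and WT 4 libraries (25898 to 29339). B-1b TET2-KO 3 (17816) and B-1a TET2-KO 4 (18941) were low as well, and the other TET2-KO libraries held 23913 or more. B-2 TET2-KO 4, with the lowest total count, held the most (35576). The source of these differences was not tested.

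Transcripts of all 10 macrophage genes were present in every one of the 21 libraries. Together they made up 0.198% of the counts in the lowest library (B-2 TET2-KO 4, 95% Wilson interval 0.195 to 0.201%) and 0.801% in the highest (B-1a TET2-KO 1, 0.796 to 0.805%), intervals that cover counting error only. On the CPM scale the summed level of the 10 genes was 7565, 2888, 5713 and 7805 CPM in B-1a WT 1 to 4, and 8007, 7120, 4947 and 2599 CPM in B-1a TET2-KO 1 to 4. In B-1b cells it was 3179, 3483, 3772 and 4278 CPM in WT 1 to 4, and 4518, 4533 and 3281 CPM in TET2-KO 1 to 3. In B-2 cells it was 2309 CPM in WT 1 and 7460 CPM in WT 4, and 7375, 7225, 5079 and 1977 CPM in TET2-KO 1 to 4. The B-1b libraries held a narrow band, whereas B-1a and B-2 libraries of both genotypes spread from below that band to well above it, and WT and TET2-KO overlapped in every subset. Those below the band were B-1a WT 2 and B-2 WT 1, whose labels are in doubt, and both TET2-KO 4 libraries, which have no B-1b counterpart. All other B-1a and B-2 libraries lay above it. Labels are in doubt as well for B-1b WT 1, at the lower edge of the band, B-1b WT 2 within it and B-1a WT 1 above it.

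**Figure D1:**
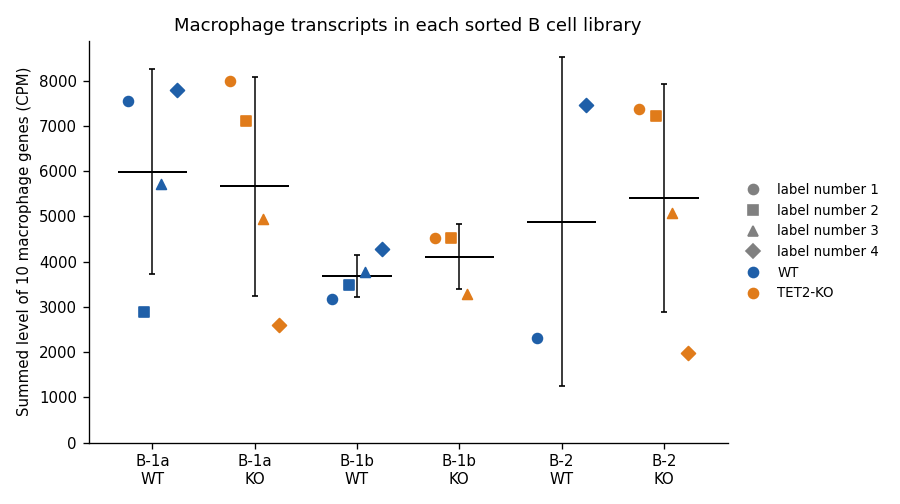
Summed level of the 10 macrophage genes (CPM) in each library, by subset and genotype; each symbol is a library, its shape the number in its label, the horizontal line the group mean and the error bar the SD. The 7 B-1b libraries lie between 3179 and 4533 CPM, whereas B-1a libraries lie between 2599 and 8007 CPM and B-2 libraries between 1977 and 7460 CPM. TET2-KO 4 has no B-1b library, and labels among the WT 1 and WT 2 libraries are in doubt.

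By group mean the order of the summed levels was B-1a WT (5993 ± 2271 CPM, SD, n = 4), B-1a TET2-KO (5668 ± 2417, n = 4), B-2 TET2-KO (5414 ± 2520, n = 4), B-2 WT (4884 ± 3642, n = 2), B-1b TET2-KO (4110 ± 719, n = 3) and B-1b WT (3678 ± 467, n = 4). Each step between neighbours in this order was smaller than the larger SD of the pair. With WT 1 and WT 2 left out, the summed level of WT cells was 5713 and 7805 CPM in B-1a, 3772 and 4278 CPM in B-1b and 7460 CPM in the only B-2 library. Per kilobase of exon, so that genes can be compared with each other, the median level over 21 libraries was highest for Apoe (1049 CPM per kb), followed by C1qb (528), Alox15 (300.2), C1qc (282) and C1qa (232). Adgre1 (59.5 CPM per kb), Timd4 (56.3) and Csf1r (13.5) were lower, and F13a1 (2.37) and Gata6 (0.973) were the lowest. Apoe alone held 34.7 to 59.2% of the summed CPM.

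**Figure D2:**
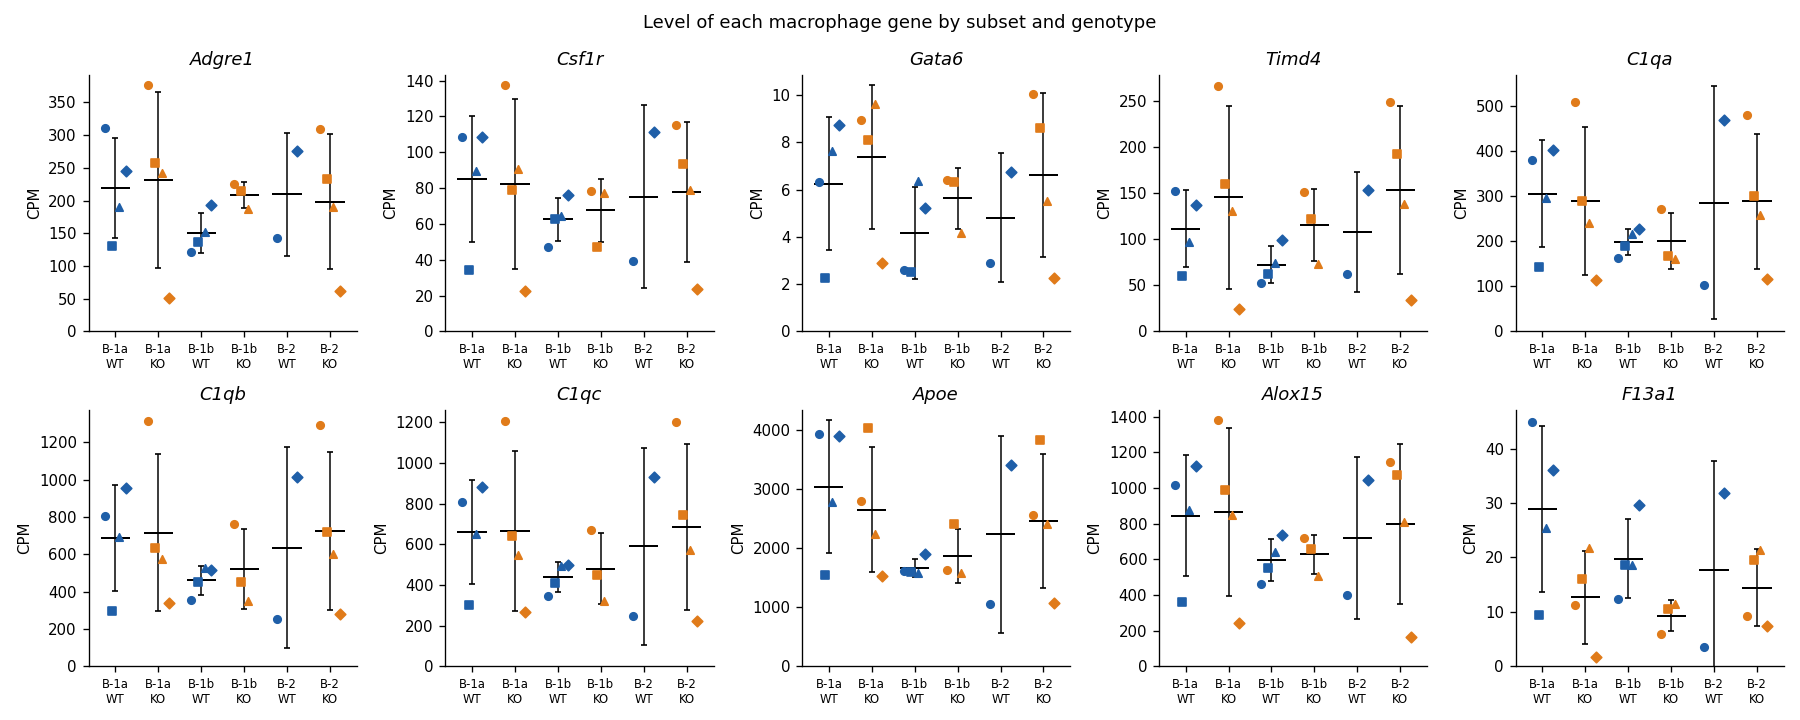
Level of each of the 10 genes (CPM, linear axis from 0, different for each gene) by subset and genotype, WT in blue and TET2-KO in orange; symbols are libraries (circle, square, triangle and diamond for label numbers 1 to 4), lines are group means and bars the SD, not drawn below 0. F13a1 is the gene in which the WT libraries of B-1b cells (12.3 to 29.7 CPM) lie above the TET2-KO libraries (5.97 to 11.4 CPM).

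Among the identity genes, Adgre1, which encodes the classical macrophage surface antigen F4/80, was at 310, 131, 190 and 246 CPM in B-1a WT 1 to 4 and at 376, 257, 242 and 50.3 CPM in B-1a TET2-KO 1 to 4. B-1b libraries held 122, 137, 152 and 193 CPM in WT 1 to 4 and 225, 214 and 187 CPM in TET2-KO 1 to 3. In B-2 cells it was at 143 and 276 CPM in WT 1 and 4 and at 309, 233, 189 and 62.5 CPM in TET2-KO 1 to 4. In B-1b cells only WT 4 (193 CPM) lay above the lowest TET2-KO library (187 CPM), and both TET2-KO 4 libraries were far below all others.

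Gata6, the transcription factor that defines large peritoneal macrophages, was present in every library at a low level, with 22 to 173 counts. It was at 6.33, 2.28, 7.63 and 8.74 CPM in B-1a WT 1 to 4 and at 8.94, 8.09, 9.61 and 2.89 CPM in B-1a TET2-KO 1 to 4. In B-1b cells it was at 2.58, 2.5015, 6.39 and 5.21 CPM in WT 1 to 4 and at 6.43, 6.33 and 4.15 CPM in TET2-KO 1 to 3. The genotypes overlapped in each subset, and at its lowest count the 95% Wilson interval of a single library reached up to 3.45 CPM. In B-2 cells Gata6 was at 2.88 and 6.74 CPM in WT 1 and 4 and at 10.04, 8.62, 5.53 and 2.28 CPM in TET2-KO 1 to 4. Csf1r, the receptor for the growth factor that macrophages need to survive, ranged from 22.5 CPM (B-1a TET2-KO 4) to 137 CPM (B-1a TET2-KO 1).

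Timd4, the gene of the phosphatidylserine receptor TIM-4, was at 153, 59.9, 96.6 and 137 CPM in B-1a WT 1 to 4 and at 266, 160, 131 and 24.4 CPM in B-1a TET2-KO 1 to 4. The B-1b levels were 52.9, 61.8, 74.4 and 99.1 CPM in WT 1 to 4 and 151, 122 and 73.2 CPM in TET2-KO 1 to 3. B-2 libraries held 62.2 and 154 CPM in WT 1 and 4 and 249, 192, 139 and 34.2 CPM in TET2-KO 1 to 4. Its level spanned 10.9-fold over the 21 libraries, from B-1a TET2-KO 4 to B-1a TET2-KO 1, and the genotypes overlapped in each subset.

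Of the complement genes, C1qb was at 805, 296, 694 and 955 CPM in B-1a WT 1 to 4 and at 1315, 635, 574 and 338 CPM in B-1a TET2-KO 1 to 4. The B-1b libraries held 356, 453, 526 and 514 CPM in WT 1 to 4 and 763, 453 and 349 CPM in TET2-KO 1 to 3. The B-2 levels were 254 and 1016 CPM in WT 1 and 4 and 1294, 722, 603 and 283 CPM in TET2-KO 1 to 4. The libraries labelled TET2-KO 1 were the highest of their subset for C1qb in all 3 subsets. C1qa ranged from 104 to 509 CPM and C1qc from 223 to 1207 CPM, each with its highest level in B-1a TET2-KO 1.

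Apoe, which encodes the lipid carrier apolipoprotein E, was at 3933, 1550, 2784 and 3906 CPM in B-1a WT 1 to 4 and at 2798, 4044, 2242 and 1538 CPM in B-1a TET2-KO 1 to 4. In B-1b cells it was at 1618, 1595, 1579 and 1898 CPM in WT 1 to 4 and at 1630, 2407 and 1588 CPM in TET2-KO 1 to 3. In B-2 cells it was at 1055 and 3420 CPM in WT 1 and 4 and at 2559, 3837, 2407 and 1065 CPM in TET2-KO 1 to 4. Apoe was highest in the libraries labelled TET2-KO 2 among TET2-KO cells of each subset, unlike C1qb, which was highest in TET2-KO 1. Alox15, whose product is a lipoxygenase that oxidizes fatty acids, ranged from 162 CPM (B-2 TET2-KO 4) to 1379 CPM (B-1a TET2-KO 1).

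F13a1 encodes the A subunit of coagulation factor XIII, a transglutaminase that crosslinks fibrin. It was at 44.8, 9.35, 25.4 and 36.02 CPM in B-1a WT 1 to 4 and at 11.2, 16.0, 21.8 and 1.69 CPM in B-1a TET2-KO 1 to 4. In B-1b cells it was at 12.3, 18.6, 18.5 and 29.7 CPM in WT 1 to 4 and at 5.97, 10.6 and 11.4 CPM in TET2-KO 1 to 3. In B-2 cells it was at 3.62 and 31.9 CPM in WT 1 and 4 and at 9.25, 19.5, 21.4 and 7.45 CPM in TET2-KO 1 to 4. In B-1a cells 3 of the 4 WT libraries were above every TET2-KO library, in B-1b cells all 4 were, and in B-2 cells the WT libraries lay on both sides. F13a1 had the widest range of the 10 genes, 26.5-fold, and at its lowest, 27 counts in B-1a TET2-KO 4, the 95% Wilson interval ran from 1.16 to 2.46 CPM.

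To determine whether macrophage transcripts differed between TET2-KO and WT mice, each subset was tested with edgeR's quasi-likelihood test over all genes, adjusted by the Benjamini-Hochberg method. In B-1a cells 0 of the 10 genes had an adjusted p under 0.05, against 0.0503% of all 13923 genes tested, and 0 of the 10 had an unadjusted p under 0.05. Their log2 fold changes (TET2-KO against WT) had a median of -0.05, beside 0.02 over all genes, and 2 were positive and 8 negative. The smallest adjusted p was that of F13a1, with a log2 fold change of -1.28 (SE 0.67, adjusted p = 0.643 by edgeR). The other 9 ran up to 0.31 for Timd4, with standard errors from 0.38 to 0.67 over the 10 genes, so that differences of that size were not detectable between these libraries. DESeq2 also called 0 of the 10. Without the libraries labelled WT 1 and WT 2, 0 of the 10 genes passed, and F13a1 was at -1.32 (adjusted p = 1.00 by edgeR).

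In B-1b cells 0 of the 10 genes passed, against 0% of 14368 genes, and 1 of the 10 (F13a1) and 787 of all genes had an unadjusted p under 0.05. The median log2 fold change was 0.01, beside -0.01 over all genes, with 6 positive and 4 negative. F13a1 was at -1.22 (SE 0.29, adjusted p = 0.838 by edgeR). The result for F13a1 depended on the test: DESeq2 on all genes gave -1.23 with an adjusted p of 0.0348 and called 0.297% of genes, and edgeR with no filter on low counts gave an adjusted p of 0.00749 and called 0.36% of genes. Over its alternatives the adjusted p of edgeR and DESeq2 ran from 0.00749 to 0.999, the highest without the libraries labelled WT 1 and WT 2, where the log2 fold change was -1.39. The WT and TET2-KO levels (CPM) did not overlap for 1 of the 10 genes, F13a1, and for 6.4% of 16135 genes compared in B-1b cells, and in B-1a cells they did so for 0 of the 10 and 4.89% of genes. Without WT 1 and WT 2, F13a1 alone did not overlap in B-1b cells (19.2% of genes) and in B-1a cells (11% of genes). The log2 fold change of F13a1 was negative in all 17 fits made in B-1a cells, all 16 made in B-1b cells and 13 of 14 made in B-2 cells. The fits of a subset reuse the same libraries, so their shared sign is not separate support.

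In B-2 cells, with only 2 WT libraries, 0 of the 10 genes passed, against 0% of 19786 genes, 1754 of which had an unadjusted p under 0.05, and DESeq2 also called 0 of the 10. The median log2 fold change was -0.09, beside 0.18 over all genes. F13a1 had the smallest adjusted p (log2 fold change -0.48, SE 0.74, adjusted p = 0.746 by edgeR), and it rested on which WT library was used. It was -1.27 without the library labelled B-2 WT 1, whose Fcer2a level goes against its label, and 1.56 without B-2 WT 4. Whether the TET2 effect differed between the B-1 subsets was tested as an interaction, in which 0 of the 10 genes passed, against 0% of 15972 genes (250 with an unadjusted p under 0.05). The smallest p in it was that of Apoe (log2 difference -0.28, SE 0.49, adjusted p = 1.00 by edgeR), and without WT 1 and WT 2 that of Apoe was -0.48, with 0 of the 10 genes past the threshold.

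Subsets were compared within TET2-KO mice, whose libraries followed their labels in Cd5 and Fcer2a, in a single edgeR fit of 11 libraries. In B-1a against B-1b cells all 10 genes had a positive log2 fold change, with a median of 0.54 beside 0.04 over all genes, but 0 of 10 passed, against 0.205% of 18555 genes. The smallest adjusted p was that of Apoe (log2 fold change 0.61, SE 0.45, adjusted p = 0.859 by edgeR). In the same fit Cd5, by which the B-1 cells were sorted, was higher in B-1a cells (2.28, SE 0.33, adjusted p = 0.00834 by edgeR). In B-1b against B-2 cells 0 of 10 genes passed, against 2.15% of genes, with a median of -0.25 beside -0.10 over all genes, and Adgre1 alone was positive. F13a1 had the smallest adjusted p there (log2 fold change -0.52, SE 0.66, adjusted p = 0.699 by edgeR). In B-1a against B-2 cells 0 of 10 passed, against 5.82% of genes, with a median of 0.27 beside -0.05 over all genes. Apoe came closest (log2 fold change 0.37, SE 0.41, adjusted p = 0.629 by edgeR). In these 3 comparisons and in the interaction, 0 of the 10 genes had an unadjusted p under 0.05, and DESeq2 called 0. These fits did not use the label number, which no label ties to a mouse. With it as a block, 2 of the 10 genes passed in B-1a against B-1b cells (0.555% of all genes). Apoe was not among them (adjusted p = 0.110 by edgeR with the block). In B-1b against B-2 cells 2 passed (3.59%), and F13a1 was not among them (adjusted p = 0.171 by edgeR with the block). In B-1a against B-2 cells 0 passed (8.83%), so the calls depended on the fit.

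Libraries that shared genotype and label number were also set side by side, although the labels do not say whether they came from the same mouse. The summed level of the 10 genes in B-1b cells was 0.66 and 0.548 times that in B-1a cells for WT 3 and WT 4, and 0.564, 0.637 and 0.663 times for TET2-KO 1 to 3. In each of these 5 sets all 10 genes were lower in the B-1b library, and the ratio stayed between 0.489 and 0.616 on TMM-normalised CPM. In WT 1 and WT 2, where libraries go against their subset labels, the ratio was 0.42 with all 10 genes lower and 1.21 with 0 of 10 lower. The B-2 level was close to the B-1a level in the same sets, at 0.956 times for WT 4 and 0.921, 1.01 and 1.03 times for TET2-KO 1 to 3, and was 0.761 times for TET2-KO 4 and 0.305 times for WT 1. The B-1b library thus held the lowest summed level in WT 4 and in TET2-KO 1 to 3, the 4 complete sets outside WT 1. These ratios are a description, with no test. The 10 genes varied together, so 10 of 10 lower in a set are not 10 separate observations. The share of all genes lower in the B-1b library was not counted.

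Some proportions between the 10 genes were close among TET2-KO libraries that shared a label number, and others were not. The ratio of Apoe to C1qb CPM was 2.13, 2.14 and 1.98 in TET2-KO 1 (B-1a, B-1b, then B-2). In TET2-KO 2 it was 6.37, 5.31 and 5.31, and in TET2-KO 3 it was 3.90, 4.55 and 3.99. The B-1a and B-2 libraries of TET2-KO 4 had ratios of 4.55 and 3.77, close to those of TET2-KO 3. TET2-KO 1, 2 and 3 did not overlap in this ratio, although the summed level within each of them differed between B-1b and the other subsets. In WT libraries the ratio ran from 3.00 to 5.24, and to 4.09 without WT 1 and WT 2. The ratio of F13a1 to Timd4 CPM was 0.0421, 0.0395 and 0.0371 in TET2-KO 1, 0.0996, 0.0863 and 0.102 in TET2-KO 2, and 0.166, 0.156 and 0.155 in TET2-KO 3, in the same order of subsets. It was 0.0694 and 0.218 in the B-1a and B-2 libraries of TET2-KO 4. In WT libraries it was 0.156 to 0.301, except in B-2 WT 1, where it was 0.0583, and 0.207 to 0.299 without WT 1 and WT 2. These 2 ratios were singled out after their values were seen. The ratio of Alox15 to Adgre1 did not separate the label numbers: it varied 1.16-, 1.51-, 1.57- and 1.86-fold within TET2-KO 1 to 4 and 1.86-fold over all 21 libraries. Within TET2-KO 4 the ratio of F13a1 to Timd4 differed 3.13-fold and that of Apoe to Timd4 2.03-fold between the B-1a and B-2 libraries.

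**Figure D3:**
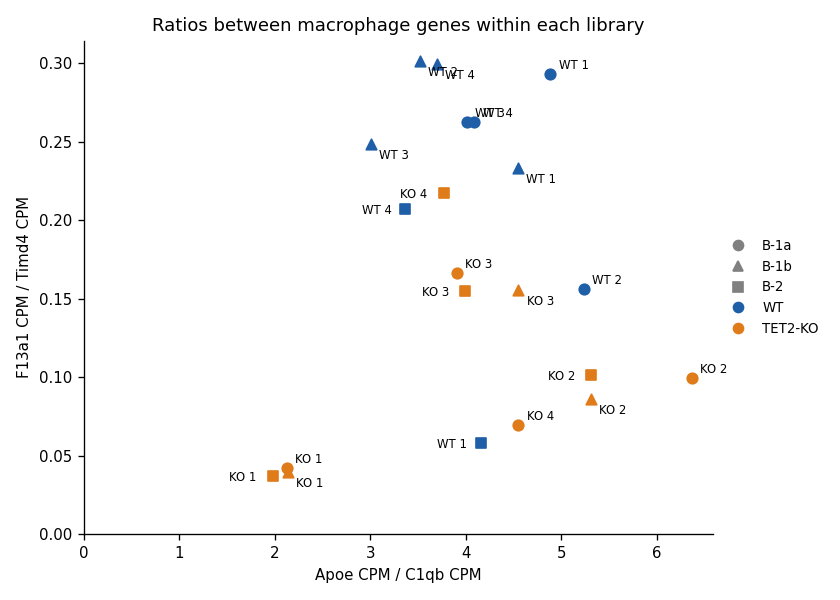
Ratio of Apoe to C1qb CPM (horizontal) and of F13a1 to Timd4 CPM (vertical) within each of the 21 libraries, both on linear axes from 0; colour is genotype, shape is subset and the text beside a symbol gives genotype (KO for TET2-KO) and label number. Libraries of TET2-KO 1, of TET2-KO 2 and of TET2-KO 3 lie together whatever their subset, at Apoe to C1qb ratios of 1.98 to 2.14, 5.31 to 6.37 and 3.90 to 4.55.

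When each library was described by the levels of the 10 genes relative to their mean in that library (log2(CPM + 0.5)), the nearest other library had the same genotype and number for 7 of 11 TET2-KO libraries and 1 of 10 WT libraries. Among the WT 3 and WT 4 libraries alone it did for 1 of 5. On this relative scale F13a1, Adgre1 and Timd4 separated the genotypes in B-1b cells: F13a1 was lower in TET2-KO by 1.14 (mean -3.95 ± 0.69, SD, n = 3, against -2.81 ± 0.25, n = 4), whereas Adgre1 was higher by 0.38 (0.51 ± 0.09 against 0.14 ± 0.08) and Timd4 by 0.55 (-0.40 ± 0.32 against -0.94 ± 0.11). No overlap between genotypes was thus seen for 3 of the 10 genes, where 6.09% of 16135 genes showed none. In B-1a cells it was seen for 0 of the 10 genes, where 1.43% of genes showed none. Without WT 1 and WT 2 it was the same 3 genes in B-1b cells, where 15.6% of genes showed none, and F13a1 in B-1a cells, where 5.22% did. The mean subtracted was that of the 10 genes themselves, so their share and that of all genes are not like measures. A lower F13a1 also lowers this mean, which raises the other members on this scale. Timd4 came close to overlap in B-1b cells, at -0.776 in the highest WT library and -0.754 in the lowest TET2-KO library. On plain CPM F13a1 alone did not overlap there. The comparison on the relative scale was added after the data had been examined and was not tested.

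The 10 genes varied together over the libraries. Over all 21 libraries, Pearson's r of log2(CPM + 0.5) between pairs of members had a median of 0.849 and ran from 0.482 (Gata6 and F13a1) to 0.990 (C1qb and C1qc), and the median was 0.858 with WT 1 and WT 2 left out. These libraries share depth, preparation and possibly mice, so the values are a description. C1qa correlated with C1qb at 0.981 and with C1qc at 0.987, and the ratio of C1qc to C1qb CPM stayed between 0.786 and 1.03 in all 21 libraries while the level of C1qb varied 5.18-fold. The 9 pairs with F13a1 had a median r of 0.597, and the other 36 had a median of 0.870. F13a1 was also the gene least like the mean of the members (r = 0.709), and Alox15 was the most like it (r = 0.975); both were themselves part of that mean.

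**Figure D4:**
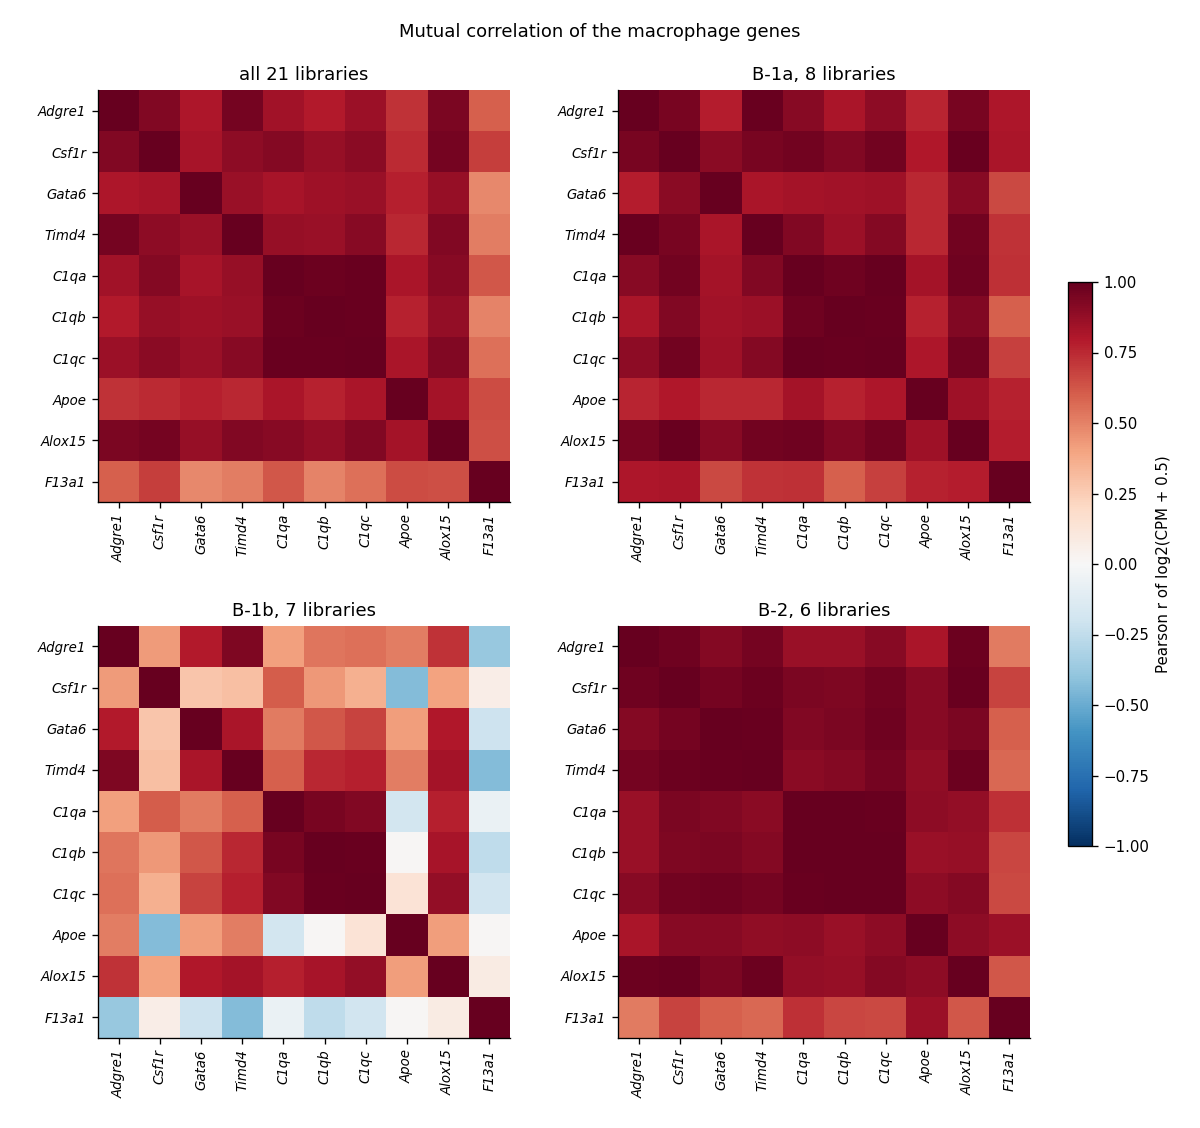
Pearson's r of log2(CPM + 0.5) for every pair of the 10 genes over all 21 libraries and within each subset, from -1 (blue) to 1 (red). C1qa, C1qb and C1qc form a block near 1 in every panel, and F13a1 has the palest row, with a median r of -0.20 in B-1b libraries.

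Within a subset, each of the 45 pairs was tested by a two-sided exact permutation test, adjusted by the Benjamini-Hochberg method over the 135 pairs of the 3 subsets. In B-1a cells (8 libraries) the median r was 0.847, and 36 of 45 pairs had an adjusted p under 0.05, or 13 by Spearman's rho. For each pair, r was also taken without the 2 libraries farthest from the median of its first gene, and the median r was then 0.390. Leaving out the extremes narrows the range of that gene, which by itself can lower r. The lower value therefore does not show on which libraries a relation rested. In B-2 cells (6 libraries) the median r was 0.914, with 31 pairs by r and 7 by rho, and 0.773 without 2 libraries. In B-1b cells (7 libraries, none labelled TET2-KO 4), in which levels varied least, the median r was 0.514, with 8 pairs by r and 4 by rho. The lowest r there was -0.44 (Apoe and Csf1r). C1qb and C1qc held in every subset by r: 0.987 in B-1a (rho 0.976; exact permutation p = 0.000124 and 0.000397, adjusted 0.00335 and 0.00893), 0.988 in B-1b (rho 0.929; exact permutation p = 0.000794 and 0.00675, adjusted 0.00694 and 0.0396) and 0.993 in B-2 (rho 0.943; exact permutation p = 0.00278 and 0.0167, adjusted 0.0117 and 0.0523). Without WT 1 and WT 2 the median r of the 45 pairs was 0.902 in B-1a (6 libraries), 0.305 in B-1b (5 libraries) and 0.939 in B-2 (5 libraries), given as a description. The r of C1qb and C1qc without the 2 farthest libraries was 0.990 in B-1a, 0.975 in B-1b and 0.990 in B-2.

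Outside the 10 genes, those whose level was most like the mean of the members over 21 libraries were Tcn2, App, C3ar1, Trf, Ctsd, Selp, Ednrb, Ecm1, Prg4 and Lcp2, with r from 0.985 to 0.957. Tcn2 carries vitamin B12, C3ar1 is the receptor for complement C3a, Trf is transferrin and Ctsd a lysosomal protease. Prg4 and Ednrb were in the list of other large peritoneal macrophage genes. Of 16050 genes compared, 46 (0.287%) reached an r of 0.9, and the median r over all of them was 0.01.

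Lists of genes known from the cells of the peritoneal cavity were summed in the same way and set beside the 10 genes. The 16 other genes of large peritoneal macrophages, led by Slpi, Prg4 and Fn1, were at 1250 to 6404 CPM in sum, and their sum correlated with that of the 10 genes at r = 0.939 over 21 libraries. Singly, 6 of these 16 genes reached an r of 0.8 with the mean of the members, and the median r was 0.702. The 16 general macrophage genes were at 5490 to 25798 CPM (r = 0.924), and most of this was Lyz2, the lysozyme of macrophages and monocytes, at 4435 to 23944 CPM. In this list 13 genes had counts in every library, and Clec4f, a marker of liver macrophages, had a highest level of 0.414 CPM and a median of 0. The genes of small peritoneal macrophages and monocytes, led by Plac8, Retnla and Ms4a4c, were at 1470 to 3479 CPM (r = 0.644). This sum mixed unlike genes: the r with the mean of the members was -0.25 for Plac8, 0.806 for Retnla and 0.270 for Ms4a4c. In this list 2 of 10 genes reached an r of 0.8, and the median r was 0.587. Plac8 and Ms4a4c differed between B-1a and B-2 cells of TET2-KO mice (log2 fold change 1.47, SE 0.27, adjusted p = 0.00357, and -2.36, SE 0.45, adjusted p = 0.00755, by edgeR). Among the members, 10 of 10 had counts in every library.

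The sums of the genes of other cell types, from mast cells to the B cells themselves, correlated less with that of the 10 genes. Mast cell genes, led by Tpsb2, Cma1 and Cpa3, were at 261 to 1471 CPM (r = 0.535 with the 10 genes), with 7 of 8 genes present in every library. T and NK cell genes were at 10.03 to 73.5 CPM (r = 0.375) and dendritic cell genes at 9.10 to 99.7 CPM (r = 0.286). Eosinophil genes were at 56.0 to 164 CPM (r = -0.15), but this was nearly all Il5ra (a mean of 105 CPM), which is also in the B-1 cell list, and the other 6 had means of 0.412 CPM or less. Neutrophil genes were at 0.319 to 14.5 CPM (r = 0.344), mesothelial and fibroblast genes at 0 to 23.9 CPM (r = 0.0967) and red cell genes at 0.402 to 1452 CPM (r = 0.319). B cell genes themselves were at 16123 to 24091 CPM (r = -0.09), B-1 cell genes at 512 to 2161 CPM (r = -0.13) and B-2 cell genes at 555 to 6041 CPM (r = 0.230). The part of any of these lists in the level of the 10 genes was not tested. Between genotypes 0 genes of these lists passed the edgeR test in any subset. In B-1a cells 12 of 89 had an unadjusted p under 0.05 (7.85% of all genes), and DESeq2 called 5 of 92 (0.967% of all genes), namely Cd209a and 4 red cell genes. In B-1b cells 9 of 86 did (5.48% of all genes), and DESeq2 called 1 of 91 (0.297% of all genes), the large peritoneal macrophage gene Slpi. The genes called by DESeq2 were named after their values were seen. Tests of these lists are not given without WT 1 and WT 2, whose labels are in doubt. Red cell genes summed to 1452 and 833 CPM in B-1a WT 1 and WT 2 and to 10.5 and 268 CPM in B-1a WT 3 and WT 4. In B-1a TET2-KO libraries they summed to 1.41 to 28.7 CPM. In B-2 cells 3 of 98 had an unadjusted p under 0.05 (8.86% of all genes), and DESeq2 called 0 of 100 (0.672% of all genes).

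**Figure D5:**
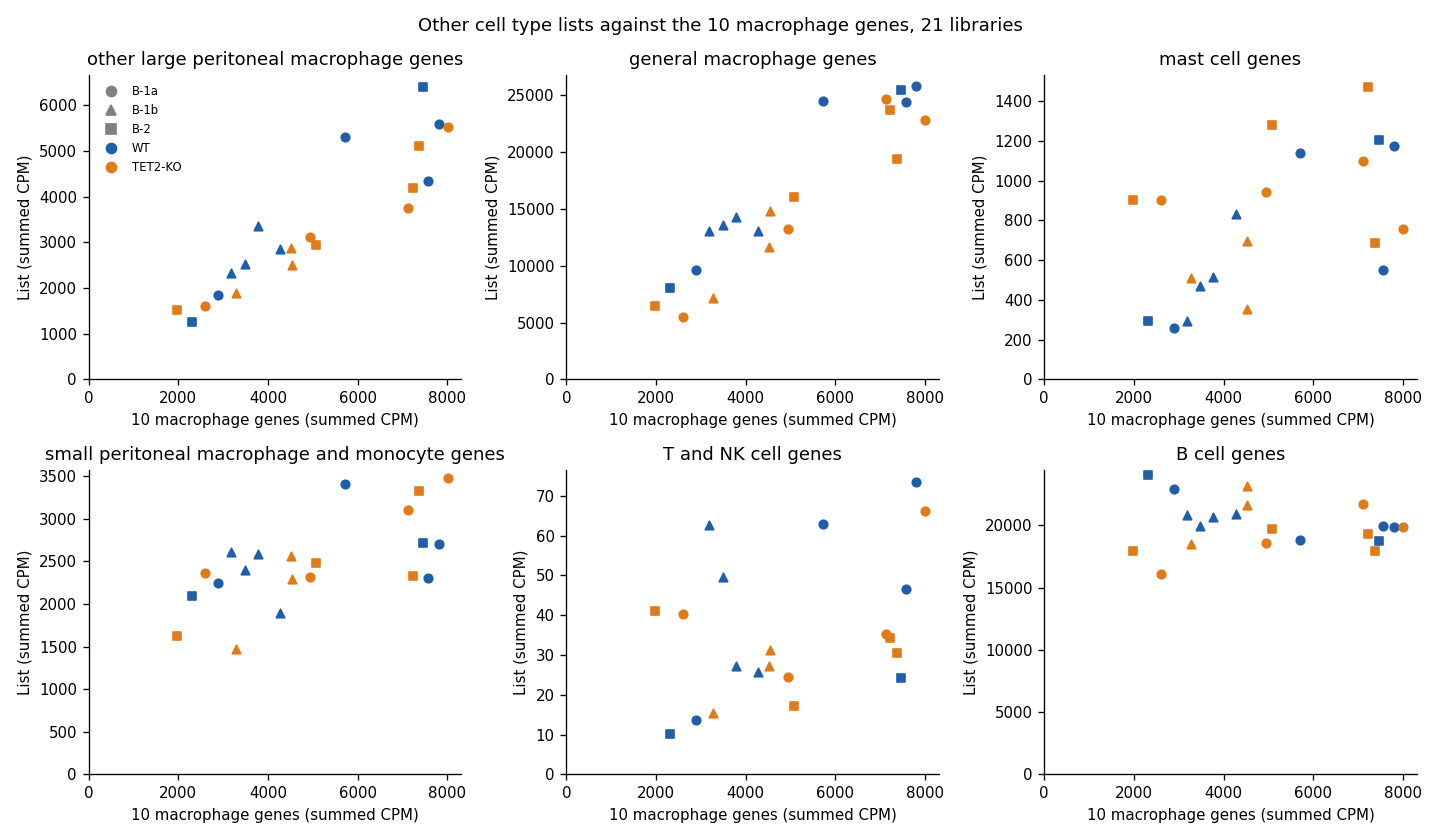
Summed CPM of 6 lists of cell type genes (vertical, each axis linear from 0) against the summed CPM of the 10 macrophage genes (horizontal) in the 21 libraries; colour is genotype and shape is subset. The sum of the other large peritoneal macrophage genes follows that of the 10 genes (r = 0.939), whereas the sum of the B cell genes stays between 16123 and 24091 CPM at every macrophage level (r = -0.09).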

How the data were processed

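RNA of 3 sorted B cell subsets of the peritoneal cavity was measured in 21 libraries, grouped by their deposited labels. The deposited files hold fragment counts per gene, not normalized or filtered by the authors, who used fastp for trimming, STAR for alignment to GRCm39 and, for counting, featureCounts 1.6.1 with GENCODE vM32, paired and without regard to strand. The versions of fastp and STAR are not given in the sources used here. Reads shared by several genes or places were left out of the counts, so near-identical copies could lose reads. The labels and the methods of the study describe the library preparation differently. Where nothing says that libraries came from separate mice, p-values measure only the spread between these libraries.

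Levels are CPM of the deposited counts, log2 values use a pseudocount of 0.5 CPM, and lengths are those in the files. Tests used edgeR 4.0.16 (limma 3.58.1, R 4.3.3; TMM, filterByExpr, robust quasi-likelihood fits, Benjamini-Hochberg over all genes tested, threshold 0.05), with DESeq2 1.42.0 as an alternative. All 10 members passed the filter in every comparison. Correlations used exact permutation tests in Python 3.11.15 (numpy 2.4.6). Promoters were read from GRCm39 with GENCODE vM39. The tests were tested on simulated data. Alternatives were other filters, size factors and scalings, thinning to 9667187 counts, the label number as a block, and each library left out.

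The members, lists and tests were chosen with earlier results of these data known. In the main fits, statistics were printed for each member with an adjusted p under 0.05 and otherwise for the member with the smallest. The genes named as most alike were the 10 with the highest r among genes with at least 10 counts in at least 6 libraries. Tet2, Lyz2 and Cd79a, and genes that show a subset, were named as checks, and Plac8 and Ms4a4c after their values were seen. B-2 cells of both genotypes were included although the study's comparisons were of B-1 cells.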

Additional observations from a re-analysis of the deposited data

Results flagged for a closer look

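Of 44 sets of 4 libraries examined for a library far from the others, 1 stood out. Apoe in the B-1b libraries of WT mice was at 1898 CPM in WT 4 and at 1579 to 1618 CPM in the other 3 libraries, a gap of 0.879 of the whole range, above Dixon's 95% critical value for 4 values. Chance alone flags about 1 set in 20, and the value of Apoe in B-1b WT 4 stayed below the highest TET2-KO library of B-1b cells (2407 CPM).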

How the results depend on the processing

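The number of members called was 0 in each of the 7 comparisons, and it stayed 0 under each alternative except those named here. In B-1b cells 1 member, F13a1, passed between genotypes with DESeq2 on all genes (-1.23) and with no filter on low counts (-1.26); the cause was not tested. With the label number as a block, 2 members passed in B-1a against B-1b cells of TET2-KO mice (0.555% of all genes). In B-1b against B-2 cells of these mice 2 passed (3.59%). Without both TET2-KO 4 libraries, a choice made after seeing the data, the block gave 2 and 4 (0.497 and 3.97% of all genes). In these block fits Apoe did not pass in B-1a against B-1b cells, nor F13a1 in B-1b against B-2 cells. Correlations of deviations between same-numbered libraries were over 0.1 in 4 of 10 pairs of TET2-KO libraries (-0.11 to 0.217, median 0.086). They were over 0.1 in 3 of 30 TET2-KO pairs with other numbers (-0.20 to 0.198, median -0.03). Between genotypes of B-1 cells 1 of 7 same-numbered pairs was over 0.1. Same-numbered TET2-KO pairs were thus somewhat higher, but no label ties a number to a mouse, and the main fits did not pair libraries. Within WT mice, where subsets were not compared, 8 of 8 same-numbered pairs were over 0.1 (0.196 to 0.578). Pairs with other numbers could be as high, at 0.578 for B-1a WT 1 with B-1b WT 2 and 0.331 for B-1a WT 3 with B-1b WT 4. B-1a WT 1 with B-1b WT 3 was at -0.355. The WT values cannot decide whether a shared number matters. B-1a WT 1 and B-1b WT 2 are both libraries whose labels are in doubt. With only 2 WT libraries of B-2 cells, their deviations are mirror images, for example 0.202 and -0.202 for B-1a WT 1 with B-2 WT 1 and WT 4. Leaving out single libraries left 0 members called, and gave for F13a1 in B-2 cells log2 fold changes from -1.27 (without B-2 WT 1) to 1.56 (without B-2 WT 4). The ratio of the highest to the lowest summed level, 4.05 on plain CPM, was 6.86 on TMM-normalised CPM. Of the 135 pairs within subsets, 75 passed by r and 24 by Spearman's rho. The median correlation over 21 libraries ran from 0.827 to 0.882 over its alternatives. The small groups, with 2 WT libraries of B-2 cells, and the WT libraries whose labels are in doubt limit what a genotype difference in these genes can show.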
